A study of Mus musculus with 18 samples.

Results

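Meiotic DNA breaks were compared between Hum/PWD and B6/PWD hybrid males of the same cross, both carrying the PWD allele of Prdm9. The labels write the cross as (B6xPWD)F1, so by the mouse convention the mothers were B6 (C57BL/6J) and the fathers PWD (PWD/PhJ). In Hum/PWD males the second Prdm9 allele was the humanized one, which codes for the human zinc fingers. In B6/PWD males it was the B6 allele. The males were about 10 weeks old, and DMC1 ChIP-seq of snap-frozen testis gave 1 library per genotype. The autosomal maps held 20623 hotspots in Hum/PWD and 17516 in B6/PWD, together 38139 of the 165207 autosomal hotspots in the 9 DMC1 maps of the study. All autosomal hotspots of both maps were taken, and those whose centres lay within 1000 bp of each other were paired, closest first. With 1 library per genotype no value had a replicate, so no test between the genotypes was possible. All differences are values of these libraries, and the intervals given cover the counting of hotspots only.

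PRDM9 is a zinc-finger protein that binds DNA and places H3K4me3 on nearby histones, and meiotic double-strand breaks form at the sites it marks. DMC1 is the strand-exchange protein that coats the resulting single-stranded DNA, so DMC1 ChIP-seq reads mark breaks under repair. A hotspot is symmetric when PRDM9 is bound and breaks form on both parental copies, and asymmetric when 1 copy is used. Loss of good binding sites in the lineage that carries an allele is a known source of asymmetry. Males of the opposite cross, with PWD mothers and B6 fathers, are the standard mouse model of hybrid sterility, and humanized Prdm9 restores their fertility.

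The heat of a hotspot is the relative DMC1 signal given by the authors, and the B6 share is the part of its informative reads that came from the B6 chromosome, from 0 to 1. Heat summed to 1472946.8 in the Hum/PWD map and 1486229 in the B6/PWD map. Total numbers of breaks were therefore not compared, and a site with lower heat took a smaller part of its own map. More breaks, slower repair and more cells at the DMC1 stage cannot be told apart in heat from whole testis. Testis identity could not be checked in hotspot positions. The lowest heat called was 5.8 in the Hum/PWD map and 6.4 in the B6/PWD map, and median heat was 34.5 in Hum/PWD and 37.7 in B6/PWD. A B6 share was given for 18057 Hum/PWD hotspots and 15133 B6/PWD hotspots. Homozygous maps served as references for each allele. The PWD/PWD map came from PWD males, and the Hum/Hum and B6/B6 maps came from B6 males. All coordinates are mm10.

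The DNA under the hotspots was read first, for the motif of the human zinc fingers. The known degenerate 13-base motif of human PRDM9, as in the capitals shown with the sequences, was searched on both strands in the 300 bases at each centre. It was present at 1611 of the 9957 Hum/PWD hotspots that matched the Hum/Hum map alone, or 16.2% (Wilson 95% interval 15.5 to 16.9%). At the 5774 B6/PWD hotspots that matched the B6/B6 map alone it was present at 2.30% (1.95 to 2.72%). Hotspots matching the PWD/PWD map alone held it at 2.26% in Hum/PWD and 1.98% in B6/PWD. Of all 7986009 autosomal windows of the same length 2.57% held it, so the Hum class stood well above the genome. The PWD class in B6/PWD stood slightly below it (1.68 to 2.34%). The intervals of the B6 class and of the PWD class in Hum/PWD (1.91 to 2.67%) included the genome value. Within the Hum class the hottest 25% held it at 19.1% and the coldest 25% at 13.7%. Shown are 4 hot Hum/PWD hotspots with the motif and no paired B6/PWD hotspot, from the mouse reference genome (GRCm38, the RefSeq copy of mm10). The motif is in capitals, on the strand that reads as the motif. These 4 were chosen for holding the motif and do not show how often hot sites hold it. They lie 4182 bp from Phtf2 (chr5:20754466-20754525, plus strand, heat 696.5, B6 share 0.694), in an intron of the extracellular matrix gene Reln (chr5:22153033-22153092, minus strand, 662, 0.328), in an intron of Fam160b1 (chr19:57383298-57383357, plus strand, 572.7, 0.536) and in coding sequence of Il17rd, a receptor of the interleukin family (chr14:27101264-27101323, plus strand, 557.5, 0.488). All 4 had a B6 share between 0.1 and 0.9.
Phtf2: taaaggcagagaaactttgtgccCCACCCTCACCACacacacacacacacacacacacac
Reln: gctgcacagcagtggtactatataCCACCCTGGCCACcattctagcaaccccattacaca
Fam160b1: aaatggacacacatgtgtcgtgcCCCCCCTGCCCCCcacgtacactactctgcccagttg
Il17rd: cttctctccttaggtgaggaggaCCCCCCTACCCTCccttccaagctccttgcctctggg

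Sites of the other classes are shown as 200 bases around the Hum/PWD centre or, for a site found in B6/PWD alone, the B6/PWD centre. Each gives the plus strand of the reference, which is of the B6 strain, and none holds the human motif. Absence of the motif in 200 bases was not limited to these classes. The Hum/PWD sites in Gm47771 (heat 847.9) and Cfap54 (811.6), hotter than all those shown with the motif, hold none there. The site in Zcchc2 (675.2) holds none either, while that near Phtf2 (696.5) does. The intron of Tpr, which codes for a protein of the nuclear pore basket, was hot and symmetric in both maps (chr1:150415060-150415259). The intron of the sorting receptor gene Sorcs1 was the hottest B6/PWD site and nearly all of its reads came from the B6 chromosome in both maps (chr19:50170172-50170371). The intron of Tmc1, a channel gene of inner-ear hair cells, was hot in B6/PWD on the PWD chromosome and had no partner in Hum/PWD (chr19:20796425-20796624). Bases that differ on the PWD chromosome are not shown.
Tpr: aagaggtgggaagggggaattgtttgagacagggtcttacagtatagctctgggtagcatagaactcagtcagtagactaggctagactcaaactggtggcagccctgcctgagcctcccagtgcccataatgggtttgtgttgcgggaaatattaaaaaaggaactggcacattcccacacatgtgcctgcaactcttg
Sorcs1: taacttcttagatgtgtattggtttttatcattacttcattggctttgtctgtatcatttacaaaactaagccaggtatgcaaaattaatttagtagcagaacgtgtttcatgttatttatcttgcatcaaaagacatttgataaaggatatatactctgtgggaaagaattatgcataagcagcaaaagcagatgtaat
Tmc1: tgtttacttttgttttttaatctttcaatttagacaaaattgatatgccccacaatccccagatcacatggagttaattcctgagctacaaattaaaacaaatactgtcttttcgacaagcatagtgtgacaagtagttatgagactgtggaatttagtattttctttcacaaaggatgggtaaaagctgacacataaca

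How far the maps used the same sites was asked next. Pairing gave 7412 sites, which are 35.9% of the Hum/PWD hotspots (35.3 to 36.6%) and 42.3% of the B6/PWD hotspots (41.6 to 43.0%). They carried 40.6% of the heat in the Hum/PWD map and 49.97% in the B6/PWD map. The centres were close, with a median distance of 60 bp and 85.6% of pairs within 200 bp, and the limit cut few of them, with 18 pairs at 900 to 1000 bp and 19 just outside it. Median heat of the sites with no partner was 31.8 in Hum/PWD (13211 sites) and 26.4 in B6/PWD (10104 sites). Of those with a B6 share, 65.0% were symmetric in Hum/PWD and 46.0% in B6/PWD.

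The hottest sites of each map without a partner differed in symmetry. In Hum/PWD they lay in introns of Gm47771 (chr10:17565320, heat 847.9, B6 share 0.452), the axoneme gene Cfap54 (chr10:93007645, 811.6, 0.435), Gm16090 (chr18:20641303, 801.5, 0.454) and Zcchc2 (chr1:106002519, 675.2, 0.452) and near Phtf2. All 5 had a Hum/Hum hotspot within 1000 bp, with heat from 667.6 to 1016.7. In B6/PWD they lay 47832 bp from the neurokinin receptor gene Tacr3 (chr3:134982411, heat 917.6, B6 share 0.005), in an intron of the actin-binding gene Ablim1 (chr19:57055526, 862.2, 0.005), 72259 bp from Prr16 (chr18:51492303, 843.9, 0.011), in the intron of Tmc1 (839.6, 0.005) and 58529 bp from Gm22448 (chr16:66196257, 824.7, 0.004). None of these 5 had a hotspot of the PWD/PWD, Hum/Hum or B6/B6 map within 1000 bp. The authors' deposited allele column gave the sites of Ablim1, Tmc1 and Gm22448 to the B6 allele and left those of Tacr3 and Prr16 undetermined. The Hum/PWD sites thus used both chromosomes, and the B6/PWD sites used the PWD chromosome almost alone.

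The sites of the PWD allele, which both genotypes carry, were then compared. A PWD/PWD hotspot lay within 1000 bp of both centres at 5532 of the 7412 pairs. These PWD-shared sites carried 28.2% of the heat in Hum/PWD and 34.0% in B6/PWD. Their median heat was 37.1 in Hum/PWD and 48.8 in B6/PWD, and the median log2 ratio of Hum/PWD over B6/PWD was -0.33 (quartiles -0.72 and 0.05, 95% order-statistic interval -0.35 to -0.31), a fold of 0.795. Heat was lower in Hum/PWD at 3984 of the 5532 sites, or 72.0%. It was at least 2-fold lower at 746, or 13.5%, against 15.5% of all 7412 pairs, and at least 2-fold higher at 166, or 3.001%, against 3.14% of all pairs. These shares of large changes are near those of all pairs. The order of the sites was much alike in both maps, with a Spearman rho of 0.876 across the 5532 sites, given as a description since sites of a library are not independent. The 1880 pairs outside the PWD/PWD map had a median heat of 49.2 in Hum/PWD and 74.9 in B6/PWD and a median log2 ratio of -0.48.

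**Figure D1:**
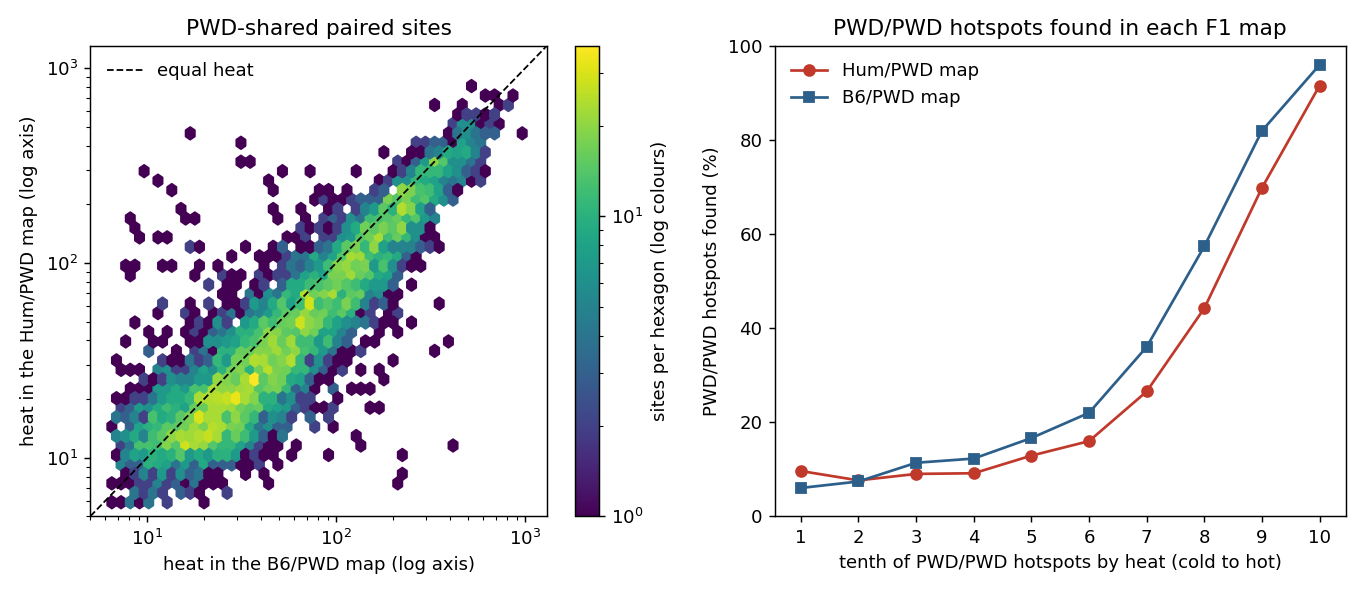
On the left, heat of PWD-shared sites in the Hum/PWD map against the B6/PWD map, on log axes, with colour for the number of sites per hexagon on a log scale and a dashed line of equal heat. Most of the 5532 sites lie below the line, and the site in Gm10800, with heat 1582.5 in Hum/PWD, lies beyond the axis. On the right, the percent of PWD/PWD hotspots found in each map by groups of 10% by heat in PWD males from cold to hot, which reaches 91.6% in Hum/PWD and 96.0% in B6/PWD in the hottest.

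The 5 PWD-shared sites with the highest mean heat were ranked in each map among the 2835 sites open to naming. Of these 5, 4 were among the 5 hottest in Hum/PWD and 4 among the 5 hottest in B6/PWD. A hotter place in Gm10800 on chromosome 2, with heat 1582.5 in Hum/PWD and 821.8 in B6/PWD, was left out for its high input, as was a site next to it near Gm10801 with 768.9 in Hum/PWD and 523.6 in B6/PWD. A site 9667 bp from 2310061N02Rik (chr16:88697502) had heat 705.7 in Hum/PWD and 816.8 in B6/PWD. A site 41418 bp from Gm25509 (chr18:72858464) had 660.5 in Hum/PWD and 833 in B6/PWD. The intron of Zfc3h1, a zinc-finger gene of nuclear RNA decay (chr10:115417986), had 617.3 in Hum/PWD and 831.7 in B6/PWD. All 3 had B6 shares of at least 0.963 in both maps. The Sorcs1 intron changed most among the 5, with 451.4 in Hum/PWD against 1019.6 in B6/PWD, rank 48 in Hum/PWD and rank 1 in B6/PWD, and a B6 share of 0.993 in Hum/PWD and 0.994 in B6/PWD. The fifth, 239322 bp from Gm597 (chr1:29019574), was the exception in both respects, with 733.2 in Hum/PWD (rank 1) and 651.9 in B6/PWD (rank 13) and a B6 share of 0.496 in Hum/PWD and 0.558 in B6/PWD. Among sites symmetric in both maps the next hottest were the intron of Tpr, with 617.2 in Hum/PWD and 473.7 in B6/PWD, and an intron of the kinase gene Map4k5 (chr12:69815016), with 555.7 in Hum/PWD and 517.5 in B6/PWD. Their B6 shares were lower in Hum/PWD, at 0.656 against 0.702 in B6/PWD for Tpr and 0.832 against 0.87 for Map4k5.

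The 5 PWD-shared sites with the highest and the 5 with the lowest ratio were described by the other homozygous maps, since hotspots of a second allele can fall in the same 1000 bp. Heat was 291.4 in Hum/PWD and 10 in B6/PWD in an intron of the non-coding gene 4930563E18Rik (chr18:10710373). It was 444.3 in Hum/PWD and 16.3 in B6/PWD in an intron of Efcab11 (chr12:99763747), 271.5 in Hum/PWD and 11 in B6/PWD in an intron of the MAX-interacting repressor gene Mxi1 (chr19:53327450), 165.4 in Hum/PWD and 7.8 in B6/PWD in an intron of 2610035D17Rik (chr11:113190148), and 232.4 in Hum/PWD and 13.4 in B6/PWD in an intron of the fatty acid elongase gene Elovl6 (chr3:129595458). The last 4 of these also lay within 1000 bp of a Hum/Hum hotspot, with heat there from 160.1 to 265.9. Their heat thus cannot be given to the PWD allele alone. The 2610035D17Rik centre in B6/PWD was at 113190899, so the maps may hold different hotspots there. The site in 4930563E18Rik had no Hum/Hum match, but its B6 share in Hum/PWD was 0.047 and its centre in B6/PWD was at 10711064. Its breaks in Hum/PWD lay mostly on the PWD chromosome, which the males of the Hum/Hum map lack. A site of the humanized allele on that chromosome alone would go unmatched. The missing match therefore does not assign its heat to the PWD allele. At the other end heat was 12 in Hum/PWD and 421.1 in B6/PWD 55315 bp from the vesicle-tethering gene Vps8 (chr16:21367803), 7 in Hum/PWD and 209.1 in B6/PWD in an untranslated region of the transcription factor gene Isl1 (chr13:116298927), and 8.1 in Hum/PWD and 214.8 in B6/PWD 19054 bp from Gm26834 (chr16:29792004). In introns of the SNARE gene Stx17 (chr4:48150663) and of Cast, which codes for the calpain inhibitor calpastatin (chr13:74727233), it was 10.8 and 11.4 in Hum/PWD and 218.6 and 130.8 in B6/PWD. The sites in Isl1, Stx17 and Cast also lay within 1000 bp of a B6/B6 hotspot, with heat there of 13, 403.6 and 149.4. The site near Vps8 lay within 1000 bp of a Hum/Hum hotspot of heat 18.9. The B6 share in B6/PWD was 0.015 at Vps8, 0.014 at Isl1, 0.012 at Gm26834, 0.442 at Stx17 and 0.571 at Cast. The B6/B6 map came from B6 males, so a B6 site on the PWD chromosome alone could not match it. The heat of these 5 sites thus cannot be given to the PWD allele alone.

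Retention of the PWD hotspots was read from the PWD/PWD map itself. Of its 21103 hotspots 6254 were found in Hum/PWD, or 29.6% (29.02 to 30.26%), and 7322 in B6/PWD, or 34.7% (34.1 to 35.3%). With the Hum/PWD list held to the length of the B6/PWD list, the difference of Hum/PWD minus B6/PWD was -9.62 percentage points in place of -5.06. In the full lists both maps held 5554 of them, Hum/PWD alone held 700 and B6/PWD alone held 1768, while 13081 were in neither. Sites held by a single map were weak. Their median heat was 12.9 for those in Hum/PWD alone and 12.2 for those in B6/PWD alone. Heat reached 50 at 112 of the 700 and at 81 of the 1768. Retention was higher at sites that were hotter in PWD males. The PWD/PWD map was cut into 4 equal parts by heat. Hum/PWD held 8.55% of the coldest part and B6/PWD 7.45%. Hum/PWD held 10.7% of the next part and B6/PWD 14.0%, and of the next Hum/PWD held 24.4% and B6/PWD 33.4%. Of the hottest part Hum/PWD held 74.7% and B6/PWD 83.8%. In the hottest 10% the shares were 91.6% in Hum/PWD and 96.0% in B6/PWD. The paired sites of the hottest 25% had a median heat of 40.4 in Hum/PWD, 51.6 in B6/PWD and 163 in PWD/PWD. In the part below it the medians were 25.8 in Hum/PWD, 32.9 in B6/PWD and 63.9 in PWD/PWD. In the colder parts few hotspots were paired, with 240 paired sites for the 5261 hotspots of the coldest part and 440 for the 5282 of the next. A site enters these medians only if it was called in both F1 maps. The medians therefore do not describe the colder PWD/PWD hotspots as a whole. At the paired sites of these parts the order was reversed. The coldest had 39.7 in Hum/PWD, 62.3 in B6/PWD and 14 in PWD/PWD, and the next 37.5, 55.3 and 27.35. At the paired sites of the 4 parts, from cold to hot, the median log2 ratio of Hum/PWD over B6/PWD was -0.38, -0.42, -0.38 and -0.31. Among paired sites it was thus much alike at all levels of heat in PWD males.

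H3K4me3 was measured in the B6/PWD cross and gave a further readout at the PWD sites that B6/PWD used. At the 5542 B6/PWD hotspots with a PWD/PWD and a Hum/PWD match, the median enrichment over local background was 0.547. At the 1761 with a PWD/PWD match and no Hum/PWD partner it was 0.0471. The sites without a partner were thus weak in H3K4me3 as well as in DMC1. No H3K4me3 table of the Hum/PWD males of this cross was used here.

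Which chromosome carried the breaks at PWD-shared sites was asked with the B6 share, given in both maps at 4761 of the 5532 sites. Its median was 0.546 in Hum/PWD and 0.684 in B6/PWD. The median difference of Hum/PWD minus B6/PWD per site was smaller, -0.038 (quartiles -0.146 and 0.001, 95% order-statistic interval -0.042 to -0.034). The share was lower in Hum/PWD by more than 0.1 at 1624 sites, or 34.1%, against 27.1% of all 6521 pairs with both shares. It was higher by more than 0.1 at 267, or 5.61%, against 5.23% of all such pairs. At 2870 sites, or 60.3%, the maps lay within 0.1 of each other. The number of informative reads behind a share is not given, so the counting error of single shares is unknown.

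Most PWD-shared sites kept their class of symmetry. With limits of 0.1 and 0.9, 4226 of the 4761 sites, or 88.8% (87.8 to 89.6%), fell in the same class in both maps. Of the 2774 sites symmetric in B6/PWD 2651 were symmetric in Hum/PWD, or 95.6%. Of the 1480 above 0.9 in B6/PWD 307 were symmetric in Hum/PWD, and of the 507 below 0.1 in B6/PWD 105 were, which is 20.7% of either class. No site went from below 0.1 to above 0.9 or back. Symmetric sites made up 64.3% of the 4761 in Hum/PWD and 58.3% in B6/PWD.

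The largest differences in B6 share among PWD-shared sites were at places of low heat in at least 1 map. In an intron of Bcas3 (chr11:85446411) the share was 0.935 in Hum/PWD and 0.142 in B6/PWD, with heat of 18.6 in Hum/PWD and 163 in B6/PWD and a B6/B6 hotspot of heat 155 at the same place. A site 19740 bp from Gm26335 (chr5:32194945) had a share of 0.846 in Hum/PWD and 0.107 in B6/PWD, with heat of 34 in Hum/PWD and 329.2 in B6/PWD. It also lay within 1000 bp of a B6/B6 hotspot, of heat 22.7. The shares ran the other way 5636 bp from Gm20609 (chr10:71319613), at 0.119 in Hum/PWD and 0.906 in B6/PWD, 118871 bp from Gm24377 (chr12:59546783), at 0.154 in Hum/PWD and 0.9 in B6/PWD, and in an intron of the kinase gene Dclk1 (chr3:55324079), at 0.212 in Hum/PWD and 0.917 in B6/PWD. The last 3 had heat of 63.9, 50.2 and 54.7 in Hum/PWD and 12.1, 26.7 and 25.5 in B6/PWD. The Gm20609 centre in B6/PWD was at 71320504, near the pairing limit, so the maps may hold different hotspots there.

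The shift in B6 share was set beside the H3K4me3 that PRDM9 leaves on either chromosome. Sites were sorted by the B6 share of H3K4me3 in the B6/PWD cross, a measure from other libraries than the DMC1 maps, with at least 10 informative reads. Where this H3K4me3 share lay from 0.3 to 0.7, at 1174 sites with a median of 0.523, the median B6 share of DMC1 was 0.4825 in Hum/PWD and 0.5905 in B6/PWD. It was lower in Hum/PWD at 80.2% of these sites, with a median difference of -0.097. Their median heat was 55.3 in Hum/PWD and 70.55 in B6/PWD. At the 215 sites with an H3K4me3 share below 0.1 the DMC1 share was 0.04 in Hum/PWD and 0.019 in B6/PWD, with a median difference of 0.007. At the 875 sites above 0.9 it was 0.978 in Hum/PWD and 0.989 in B6/PWD, with a median difference of -0.009. Between these ends the median difference was -0.036 for an H3K4me3 share of 0.1 to 0.3 (184 sites) and -0.025 for 0.7 to 0.9 (452 sites). Of these 5 bins the shift was widest at 0.3 to 0.7, and a share near 0 or 1 leaves less room for a difference. When the sites were sorted by the DMC1 B6 share of PWD/B6 males of the opposite cross instead, the shift was widest at 0.7 to 0.9, with a median difference of -0.13 over 763 sites, against -0.109 over 1877 sites at 0.3 to 0.7. The median log2 heat ratio of Hum/PWD over B6/PWD had another order. From the lowest to the highest H3K4me3 share it was 0.04, -0.16, -0.32, -0.38 and -0.40. At the sites of these bins found in the opposite cross, PWD/Humanized over PWD/B6, it was -0.30, -0.60, -0.66, -0.64 and -0.46, with no steady fall.

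**Figure D2:**
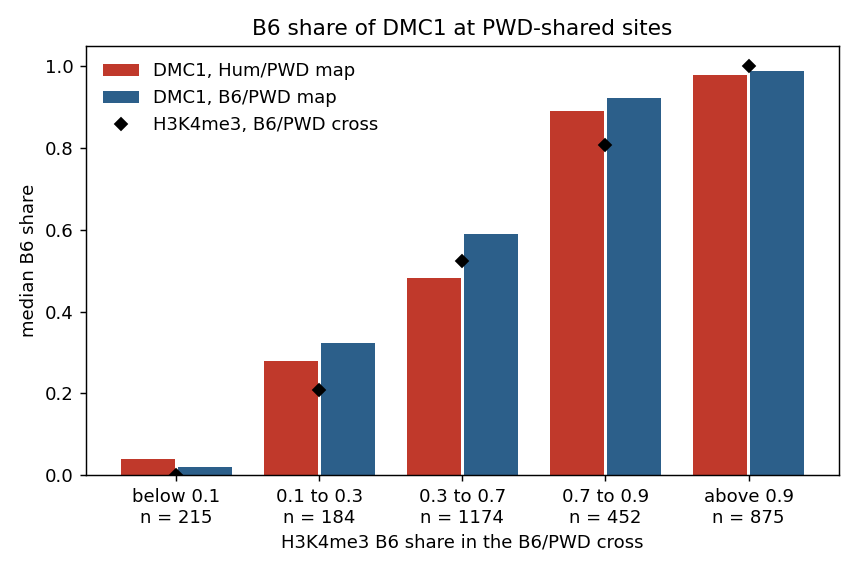
Median B6 share of DMC1 in Hum/PWD and B6/PWD (bars) and of H3K4me3 in the B6/PWD cross (diamonds), for PWD-shared sites in 5 bins of the H3K4me3 share, with the number of sites under each. The maps stand farthest apart in the bin of 0.3 to 0.7, at 0.4825 in Hum/PWD and 0.5905 in B6/PWD.

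The B6 share of H3K4me3 was read in the same way in the libraries that gave it. At 943 sites symmetric in both DMC1 maps and informative in 3 H3K4me3 tables, the median B6 share of DMC1 was 0.481 in Hum/PWD and 0.600 in B6/PWD. The median B6 share of H3K4me3 at the same sites was 0.531 in PWD/Humanized males of the opposite cross, 0.521 in PWD/B6 males of the opposite cross and 0.545 in the B6/PWD cross. The median difference in H3K4me3 share per site was 0.000887 for PWD/Humanized minus PWD/B6 within the opposite cross, and -0.0145 for PWD/Humanized of the opposite cross minus the B6/PWD cross. The median difference in DMC1 share was -0.096 for Hum/PWD minus B6/PWD. No H3K4me3 value matches the DMC1 comparison in cross direction, so these differences were not set against each other.

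Heat was then divided between the parental chromosomes, as heat times the B6 share and heat times the rest. At the 2651 PWD-shared sites symmetric in both maps the B6-chromosome part had a median of 14.8 in Hum/PWD and 25.1 in B6/PWD. Its median log2 ratio was -0.69 (quartiles -1.16 and -0.24, 95% order-statistic interval -0.72 to -0.66), and it was lower in Hum/PWD at 85.1% of sites. The PWD-chromosome part had a median of 16.7 in Hum/PWD and 17.0 in B6/PWD. Its median log2 ratio was 0.02 (quartiles -0.47 and 0.52, interval -0.02 to 0.06), and it was lower in Hum/PWD at 49.1% of sites. The lower heat of the symmetric PWD-shared sites in Hum/PWD thus lay on the B6 chromosome in these libraries. With 1756 sites chosen by an H3K4me3 share of 0.1 to 0.9 in place of the DMC1 shares, the values were -0.58 for the B6-chromosome part and 0.05 for the PWD-chromosome part. The B6-chromosome part had the lower median on all 19 autosomes, from -1.35 on chromosome 19 to -0.27 on chromosome 9. The PWD-chromosome part ran from -0.53 on chromosome 19 to 0.61 on chromosome 12 and was below 0 on 9. Heat is relative within a map, so an even scaling of either map would move both parts by the same amount and leave the median gap of -0.72 between them.

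**Figure D3:**
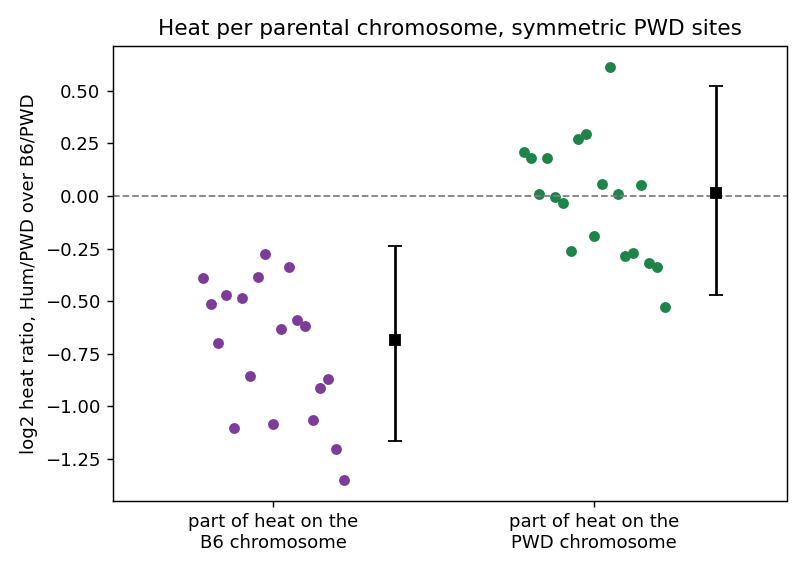
Log2 ratio of Hum/PWD over B6/PWD for the parts of heat on the B6 and the PWD chromosome, at PWD-shared sites symmetric in both maps; dots are medians of autosomes 1 to 19 from left to right, and squares with bars are the median and quartiles of all 2651 sites. The B6-chromosome dots all lie below 0, around a median of -0.69, and the PWD-chromosome dots lie on both sides of 0, around 0.02.

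The opposite cross gave separate libraries of the same allele pairs, with the PWD strain as mother. There PWD/Humanized males had a median B6 share of 0.650 and PWD/B6 males 0.709 at 3131 PWD-shared sites, with a median difference of -0.022. At 3037 sites with shares in all 4 maps the median difference was -0.028 for Hum/PWD minus B6/PWD and -0.021 for PWD/Humanized minus PWD/B6. Between crosses with the same alleles it was -0.003 for Hum/PWD minus PWD/Humanized and 0.004 for B6/PWD minus PWD/B6. The B6 share was thus lower with the humanized allele in both cross directions. The parts of heat differed between the cross directions. In the opposite cross both parts were lower with the humanized allele, with median log2 ratios of -0.88 for the B6-chromosome part and -0.36 for the PWD-chromosome part over 1601 sites, and the median gap between them was -0.49. The difference between the crosses was not tested.

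Pairs outside the PWD/PWD map were mostly one-sided. By the authors' deposited allele column of the B6/PWD map, 1039 of the 1880, or 55.3%, were sites of the PWD allele, 638 undetermined and 202 of the B6 allele. At the 1039 the median B6 share was 0.983 in Hum/PWD and 0.997 in B6/PWD, and 884 lay above 0.9 in both maps. The PWD-shared set thus leaves out sites that the authors' deposited column gives to the PWD allele, most of them with a share above 0.9. The set still holds 1173 sites above 0.9 in both maps.

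Symmetry was compared next over all hotspots. Of the hotspots with a B6 share, 10806 of 18057 were symmetric in Hum/PWD, or 59.8% (59.1 to 60.6%), and 6854 of 15133 in B6/PWD, or 45.3% (44.5 to 46.1%). Symmetric hotspots carried 51.8% of the heat in Hum/PWD and 27.2% in B6/PWD. Near the limits, 117 Hum/PWD hotspots lay at 0.09 to 0.1 and 140 at 0.1 to 0.11, and 81 and 75 B6/PWD hotspots did so. At 0.89 to 0.9 and at 0.9 to 0.91 there were 140 and 164 in Hum/PWD and 105 and 96 in B6/PWD. One-sided hotspots of the B6 chromosome were alike in share, at 26.0% in Hum/PWD and 28.1% in B6/PWD. Those of the PWD chromosome were 14.2% in Hum/PWD and 26.6% in B6/PWD.

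Hotspots were then split by allele, and the classes of the Hum and B6 alleles were farther apart than the PWD class. The 9957 Hum/PWD hotspots matching the Hum/Hum map alone were symmetric at 74.3% (73.3 to 75.2%), and these symmetric sites carried 36.9% of all heat with a share. The 5774 B6/PWD hotspots matching the B6/B6 map alone were symmetric at 58.9% (57.6 to 60.3%), and these carried 11.8%. Hotspots matching the PWD/PWD map alone were close in count, symmetric at 64.4% of 5852 in Hum/PWD (63.0 to 65.7%) and 61.0% of 7007 in B6/PWD (59.8 to 62.3%). By heat within that class the symmetric part was 44.95% in Hum/PWD and 41.7% in B6/PWD. In the class of the Hum or B6 allele it was 74.2% in Hum/PWD and 37.7% in B6/PWD. Median heat of symmetric and one-sided sites was 41.2 and 45.5 in the Hum class, and 32.05 and 91.05 in the B6 class. Symmetric and one-sided sites of the Hum class were thus about equally hot, and one-sided sites of the B6 class were the hotter ones. Hotspots matching no homozygous map of their own alleles were symmetric at 21.2% of those with a share in Hum/PWD (4429 hotspots in all) and at 4.47% in B6/PWD (4439). Of the hotspots in this last class 41.0% lay below 0.1 in Hum/PWD and 45.8% in B6/PWD, against 3.76% in the Hum class and 29.9% in the B6 class. Above 0.9 lay 37.7% of this class in Hum/PWD and 49.8% in B6/PWD, against 22.0% in the Hum class and 11.2% in the B6 class. The Hum/Hum and B6/B6 maps came from B6 males, so a site of either allele with no activity on B6 chromosomes could not match them. The PWD/PWD map came from PWD males, so a PWD site with no activity on PWD chromosomes could not match it.

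The comparison was repeated chromosome by chromosome. The symmetric share was higher in Hum/PWD on 19 of 19 autosomes, and on all 19 the counting intervals of the maps were apart. The lowest Hum/PWD value, 54.4% on chromosome 19, lay above the highest B6/PWD value, 48.4% on chromosome 1. In Hum/PWD the share was highest on chromosomes 18 (63.4%), 1 (61.8%) and 13 (61.1%) and lowest on 19, 4 (57.7%) and 15 (57.9%). In B6/PWD it was highest on chromosomes 1, 9 (47.2%) and 18 (47.1%) and lowest on 19 (41.6%), 11 (42.5%) and 8 (42.9%). Chromosome 19 was thus lowest in both maps, and chromosomes 1 and 18 were among the 3 highest in both. The difference ran from 12.2 percentage points on chromosome 15 to 17.2 on chromosome 8, with a median of 14.6. In number, symmetric hotspots ran from 314 on chromosome 19 to 911 on chromosome 2 in Hum/PWD, and from 202 to 536 on the same chromosomes in B6/PWD. Per Mb the range was 3.02 on chromosome 14 to 5.50 on chromosome 18 in Hum/PWD, and 1.95 to 3.73 on the same chromosomes in B6/PWD.

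**Figure D4:**
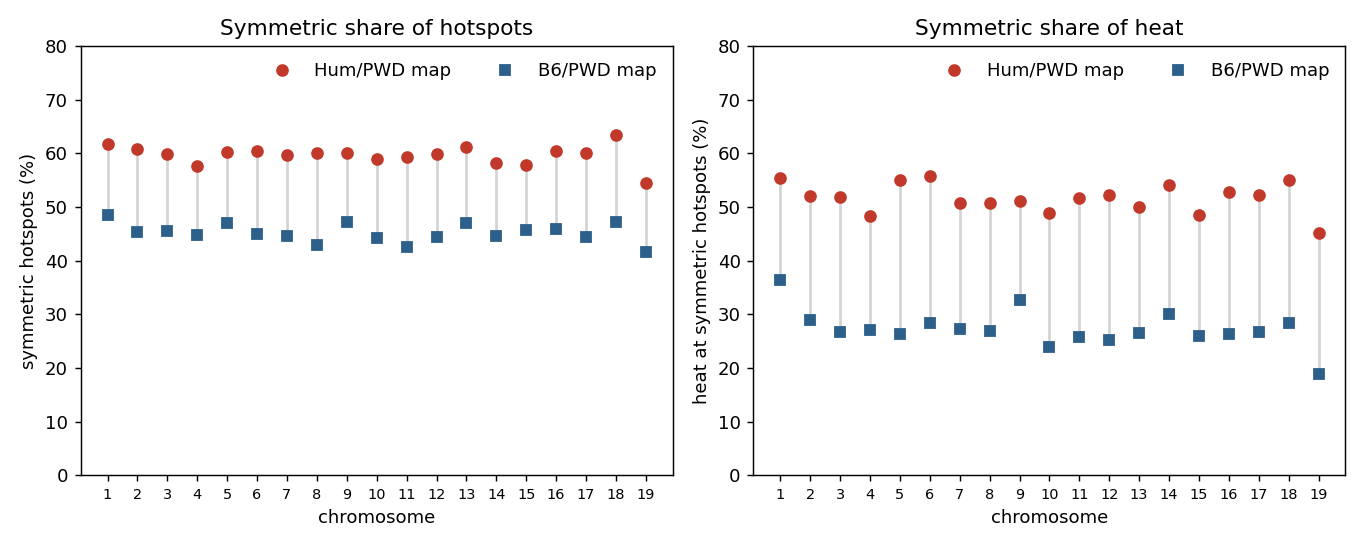
Percent of hotspots that were symmetric (left) and percent of heat at symmetric hotspots (right) for each autosome in Hum/PWD (circles) and B6/PWD (squares), joined by grey lines. The lowest Hum/PWD share of hotspots, 54.4% on chromosome 19, lies above the highest B6/PWD share, 48.4% on chromosome 1.

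By heat the maps lay farther apart. The symmetric part of heat was higher in Hum/PWD on all 19 autosomes, from 45.1% on chromosome 19 to 55.8% on chromosome 6. In B6/PWD it ran from 18.9% on chromosome 19 to 36.5% on chromosome 1. The difference was smallest on chromosomes 9 (18.6 points) and 1 (18.9) and widest on chromosome 5 (28.8). The heat at symmetric hotspots was 1.53 times as high in Hum/PWD as in B6/PWD on chromosome 15 and 2.17 times on chromosome 6, the ends of the range over the 19 autosomes. Chromosomes of 1 library are not replicates, and all of them share any feature of that library.

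Total heat was spread over the chromosomes less unevenly in Hum/PWD. Heat per Mb ran from 497 on chromosome 14 to 786 on chromosome 19 in Hum/PWD, and from 430 on chromosome 1 to 951 on chromosome 19 in B6/PWD. Chromosomes 19 and 18 were the highest in both maps. The log2 ratio of summed heat was lowest on chromosomes 18 (-0.29), 19 (-0.28) and 15 (-0.26) and highest on 9 (0.38), 1 (0.24) and 2 (0.23), and Hum/PWD had more heat on 8 of 19. Across the 19 autosomes heat per Mb had a Spearman rho with chromosome length of -0.36 in Hum/PWD and -0.54 in B6/PWD, given as a description.

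The heat of PWD-shared sites differed between chromosomes. Their median log2 ratio was -0.90 on chromosome 19 (144 sites), -0.73 on chromosome 18 and -0.65 on chromosome 10, and -0.09 on chromosome 1, -0.02 on chromosome 12 and 0.03 on chromosome 9. It was below 0 on 18 of 19 autosomes. Its Spearman rho with the log2 ratio of summed chromosome heat was 0.891 across the autosomes, and the sums include these sites. The opposite cross had its lowest medians, PWD/Humanized over PWD/B6, on chromosomes 17 (-1.03) and 19 (-1.02) and its highest on chromosome 9 (-0.20). The rho between the cross directions was 0.942, over the same 19 chromosomes and with the same PWD/PWD map behind both sets of sites. The median difference in B6 share, Hum/PWD minus B6/PWD, was below 0 on 19 of 19, from -0.077 on chromosome 16 to -0.007 on chromosome 14.

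**Figure D5:**
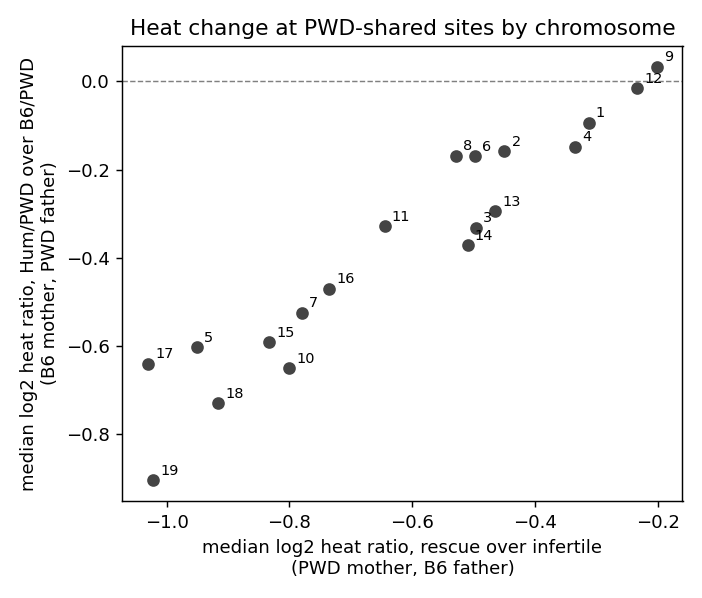
Median log2 ratio of heat at PWD-shared sites for each autosome (numbered dots), Hum/PWD over B6/PWD on the vertical axis and PWD/Humanized (rescue) over PWD/B6 (infertile) of the opposite cross on the horizontal axis. Chromosome 19 is lowest on the vertical axis at -0.90, and chromosome 9 is highest on both.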

How the data were processed

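Values were taken from the deposited tables. Per the submitters' processing notes, BWA, SAMtools and bedtools were used, with no versions given, and the build was mm10. How hotspots were called is not given in the sources. The heat column is a relative signal by the authors, without a stated definition. The B6 share is a fraction deposited by the authors without the number of informative reads, so the depth behind it is unknown. Per the file headers, the H3K4me3 tables hold counts of fragments in 1 kb bins, an enrichment as a ratio to local background, the B6 share as a fraction, and a score of informative reads after subtraction of background by the authors. These tables hold 2 biological replicates for the hybrids and 1 share per bin. Counts of input served to leave 1000 bp around bins above 10 times the median out of the named sites. The authors made the B6/B6 map from a library that other submitters had produced.

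Centres were paired within 1000 bp, each used once, closest first, with Python 3.11.15, NumPy 2.4.6, pandas 2.3.3 and SciPy 1.17.1. Figures used Matplotlib 3.10.9, sequences pysam 0.24.0, and gene positions GENCODE M21. The pairing was tested on simulated data. Intervals are Wilson 95% intervals for shares and 95% order-statistic intervals for medians. Each hybrid DMC1 map is 1 library, so no p-value was computed. Members, lists and classes were chosen with earlier results of these data known. Named sites are the 5 hottest, the 5 with the highest and lowest heat ratio, the 5 with the largest difference in B6 share and the 3 hottest symmetric ones among PWD-shared pairs with heat of at least 50 in either map, and the 5 hottest of each map with no partner. Sites within 1000 bp of both a B6/B6 and a Hum/Hum hotspot were left out of naming. Alternatives changed the pairing limit, the length of the longer list, the symmetry limits, the motif window and the source of the PWD sites. The X chromosome was not analysed here.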

Additional observations from a re-analysis of the deposited data

How the results depend on the processing

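Of 43 alternative values for 13 results, 21 moved beyond the interval of the reported value and 1 changed sign. The other 21 stayed within it or, for the counts of autosomes, which have no interval, did not change. For heat at symmetric hotspots the interval was that of the share of hotspots. The percent with the motif depends on the length of the window itself. With a pairing limit of 2000 bp 36.9% of the Hum/PWD hotspots were paired. With the Hum/PWD list cut to its 17516 hottest hotspots, 37.7% were paired, the median log2 heat ratio at PWD-shared sites was -0.30, the difference in PWD/PWD hotspots found was -9.62 percentage points in place of -5.06, and the difference in symmetric share was 12.7 points. Symmetry limits of 0.2 to 0.8 and 0.3 to 0.7 gave differences in symmetric share of 12.4 and 11.9 points, and in heat at symmetric hotspots of 23.5 and 21.7 points in place of 24.6. Motif windows of 200 and 500 bases gave 11.5 and 22.9% in the Hum class, 1.40 and 4.09% in the B6 class and 1.59 and 3.96% at the PWD-shared sites, and of all windows 1.69 and 4.30%. Other alternatives were chosen after the data were seen. PWD sites by the authors' deposited allele column gave a log2 heat ratio of -0.35 and a difference in B6 share of -0.028. The opposite cross, PWD/Humanized against PWD/B6, gave -0.55 and -0.022. For the B6-chromosome part of heat the value was -0.58 with the H3K4me3 share and -0.88 in the opposite cross, and for the PWD-chromosome part the opposite cross gave -0.36 in place of 0.02, which is the value that changed sign. The cause was not tested. No replicate could be left out. No paired analysis was possible because each DMC1 map is 1 library and no result comes from a test. Heat has no stated definition and the reads behind a B6 share are not given, so the precision of single sites is unknown.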

Other observations

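Hotspots that matched no homozygous map of their own alleles differed by chromosome in how often the reference held the human motif there. In Hum/PWD, 1636 such hotspots had a B6 share below 0.1, and 8.56% of them held the motif in 300 bases (Wilson 95% interval 7.30 to 10.0%). Of the 1505 with a share above 0.9 it was present at 2.19% (1.57 to 3.06%), near the 2.57% of all autosomal windows. The Hum class itself stood at 16.2%. All these shares were read in the reference, which is of the B6 strain. For hotspots with a share below 0.1 the bases of the PWD chromosome, which carried the breaks, were not read. The value below 0.1 is therefore not like for like with the others. Of all 13211 Hum/PWD hotspots with no B6/PWD partner 14.2% held the motif, and of the 10104 B6/PWD hotspots with no Hum/PWD partner 2.20%.

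The 700 PWD/PWD hotspots found in Hum/PWD alone had a median B6 share of 0.348 there, and the 1768 found in B6/PWD alone had 0.600 there. At the 5554 held by both, the median was 0.541 in Hum/PWD and 0.680 in B6/PWD.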
